A study of Mus musculus with 10 samples.

Results

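The enzymes that write and erase 5-methylcytosine were followed across mouse ES cells in which the posterior end of the Hoxa cluster was targeted with dCas9-VP160. All probes listed under a transcript of 9 genes were taken: *Dnmt1*, *Dnmt3a*, *Dnmt3b*, *Dnmt3l*, *Uhrf1*, *Tet1*, *Tet2*, *Tet3* and *Tdg*. These are 18 of the 55681 probes on the array. *Dnmt1*, *Dnmt3a* and *Dnmt3l* had 1 probe each, *Uhrf1*, *Tet1* and *Tet2* had 2 each, and *Dnmt3b*, *Tet3* and *Tdg* had 3 each.

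DNA methylation in mammals is set on CpG dinucleotides by the *de novo* methyltransferases Dnmt3a and Dnmt3b, with Dnmt3l as a cofactor without catalytic activity of its own. It is copied at replication by Dnmt1, which Uhrf1 brings to hemimethylated DNA. Tet1, Tet2 and Tet3 oxidise 5-methylcytosine, and the glycosylase Tdg cuts out the most oxidised forms for base excision repair. Mouse ES cells are known for high *Dnmt3b*, *Dnmt3l* and *Tet1* transcription.

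The cells were E14 ES cells (129/Ola background), 1 established line, grown on gelatin in serum with 1000 U/ml Lif, a cytokine that keeps them undifferentiated. *Hottip* gRNA cells (4 arrays) received 5 guide plasmids against the promoter of *Hottip*, a lncRNA gene beside *Hoxa13*, together with a plasmid for dCas9-VP160, a Cas9 without nuclease activity that carries copies of the VP16 activation domain. *Hoxa13* gRNA cells (3 arrays) received 5 guide plasmids against the *Hoxa13* promoter and the same dCas9-VP160 plasmid. Controls (3 arrays) received non-targeting guides and dCas9 alone according to the protocol, so that the control can differ from both other groups in VP160 as well as in the guides. Transfection was transient, cells of all groups were selected with 2 µg/ml puromycin for 24 h, and RNA was taken 48 h after transfection. Each array is described as a separate biological replicate.

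Guide sequences designed by the study, all 5 for *Hottip* and 2 for *Hoxa13*, are shown because they are what distinguishes the 2 targeted groups. Each is a 20-base spacer, written 5′ to 3′.
Hottip guide 1: gcagtaagaaggtaaactcg
Hottip guide 2: tctcctgactttagcggtcc
Hottip guide 3: tacccaggaccgctaaagtc
Hottip guide 4: ggatcagggaaggttttatt
Hottip guide 5: gggatcagggaaggttttat
Hoxa13 guide 4: cgggccgggggcgggccaat
Hoxa13 guide 5: cgggccaatgggcggccgcc

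All 5 *Hottip* guides and both *Hoxa13* guides shown had an exact match followed by NGG in the promoter window of their own target (RefSeq, GRCm38.p6, 250 bases before to 50 bases after a transcript start) and in no window of another gene among 32841. None matched a window of the 9 methylation genes, of which there are 16. The fewest mismatches next to an NGG there, on either strand, were 8 or 9 for *Hottip* guides and 6 or 7 for these *Hoxa13* guides. The lowest number belonged to *Hoxa13* guide 4, with 6 mismatches to a stretch in a *Dnmt3a* window and to one in the *Dnmt3b* window, a closeness also met by 1.86% of all windows. Both stretches are printed with the mismatched bases in capitals and the last 3 bases after the spacer position (GRCm38.p6). Whether dCas9-VP160 bound them was not measured.
Dnmt3a, chr12:3807006-3807028 (+): cAggcAgCgggcgggccGGGagg
Dnmt3b, chr2:153649405-153649427 (+): AgggccgggCCcgggcTaCAagg

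Promoter windows of the 9 genes differed widely in CpG content, the substrate of the encoded enzymes. Counted as the letters CG, which read the same on both strands, the single *Tet2* window held 57, a number reached by 0.152% of all windows, while the 3 *Dnmt3l* windows held 3, 4 and 6 against a median of 7 over all windows. *Dnmt3a* had 46, 47 and 18, *Dnmt3b* 30, *Tet3* 22, *Tdg* 26 and *Tet1* 17. *Uhrf1* had 12 and 33, and *Dnmt1* 33, 12 and 2. The *Tet2* window, chr3:133544341-133544640 on the minus strand, and the *Dnmt3l* window with 6, chr10:78042037-78042336 on the plus strand, are shown as a window rich in CG and one with few, with each CG in capitals. Methylation of these windows was not measured.
Tet2: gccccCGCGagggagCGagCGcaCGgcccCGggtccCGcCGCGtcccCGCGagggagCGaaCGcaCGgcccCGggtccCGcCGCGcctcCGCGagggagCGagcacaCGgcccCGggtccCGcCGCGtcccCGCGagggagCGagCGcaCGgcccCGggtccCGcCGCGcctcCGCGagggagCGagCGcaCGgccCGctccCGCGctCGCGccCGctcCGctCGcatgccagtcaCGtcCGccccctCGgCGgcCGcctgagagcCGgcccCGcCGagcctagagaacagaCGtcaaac
Dnmt3l: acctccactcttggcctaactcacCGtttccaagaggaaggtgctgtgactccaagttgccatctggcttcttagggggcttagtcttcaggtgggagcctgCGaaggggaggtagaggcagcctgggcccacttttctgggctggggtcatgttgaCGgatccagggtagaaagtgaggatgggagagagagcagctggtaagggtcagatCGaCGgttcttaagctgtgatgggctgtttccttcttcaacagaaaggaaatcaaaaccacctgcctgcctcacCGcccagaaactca

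Levels below are log2 of the background-subtracted spot signal relative to the 75th percentile of the same array, so that 0 is the signal exceeded by 1 spot in 4. They compare groups for a probe and do not rank one probe against another, since probes bind with different strength. The 75th percentile itself ran from 586 to 2572 over the 10 arrays, and the share of probes well above background lay between 31.9% and 41.4%. The brighter *Hoxa13* probe was at a median of 3.74 (3.17 to 4.16) on the *Hottip* gRNA arrays and well above background on 4 of 4. On the arrays labelled *Hoxa13* gRNA it was at −4.31 (−4.80 to −3.68) and in the control at −5.00 (−5.84 to −3.46), well above background on 0 of 3 in both. The targeted gene thus did not separate the arrays labelled *Hoxa13* gRNA from the control, and directions given for them rest on the label. No *Hottip* probe is named on the array. All 9 ES cell markers examined were well above background on every array, *Pou5f1* at a mean of 5.11 after *Hottip* gRNAs, 6.11 on the arrays labelled *Hoxa13* gRNA and 4.93 in the control. Of the 5 fibroblast markers, *Postn* was well above background on no array, *Col1a2* on 1, *Col1a1* on 4, and *Col3a1* and *Thy1* on 7 each. For *Hottip* gRNAs, *Hoxa13* gRNAs and the control this was 0 of 4, 3 of 3 and 1 of 3 for *Col1a1*. It was 1 of 4, 3 of 3 and 3 of 3 for *Col3a1*, and 4 of 4, 1 of 3 and 2 of 3 for *Thy1*. Means of *Col1a2* were −4.08, −2.64 and −4.74 in that order. The summed linear level of the 5 fibroblast markers was 0.729 to 6.99 after *Hottip* gRNAs, highest on replicate 4, where *Col3a1* was at 2.68. It was 0.903 to 1.68 on the arrays labelled *Hoxa13* gRNA and 0.513 to 2.56 in the control. Among 4 trophoblast markers, *Cdx2* rose after *Hottip* gRNAs (log2 difference 4.06 from the control, limma, adjusted p = 0.00105) and *Krt7* rose too (3.14). Signals of both genes stood clear of background on every array of that group, but on 0 of 3 control arrays. For *Hoxa13* gRNAs the count was 1 of 3 for *Cdx2* and 0 of 3 for *Krt7*. Their control means, −3.74 and −4.71, were thus background readings, and the sizes of both differences are uncertain. *Eomes*, well above background on all 10 arrays, differed from the control by 0.88 after *Hottip* gRNAs (limma, adjusted p = 0.553) and was not called. *Elf5* was well above background on no array. The summed linear level of the 4 was 2.55 to 3.22 after *Hottip* gRNAs, 0.896 to 1.85 on the arrays labelled *Hoxa13* gRNA and 0.760 to 0.840 in the control; its part in the values below was not tested. In such bulk RNA, fewer cells of a type and less RNA per cell cannot be told apart. None of the tested fibroblast, extraembryonic endoderm and early differentiation markers was called against the control. Means after *Hottip* gRNAs, for *Hoxa13* gRNAs and in the control were 2.43, 0.59 and 0.77 for *Gata6* and 4.45, 4.32 and 4.38 for *Otx2*. Those of *Sox1* were −1.06, 0.83 and 0.70. For *Hottip* gRNAs against the control, *Gata6* differed by 1.66 (limma, adjusted p = 0.0924) and *Sox1* by −1.76 (adjusted p = 0.12). *T*, well above background on 1 array and not tested, was at means of −3.04, −4.19 and −4.35. Control replicate 3 stood apart in the endoderm marker *Dab2*, at 6.27 against −0.38 and −0.92 on the other control arrays, while its *Gata6* level was 0.51. With it the summed level of the 5 endoderm markers ran from 3.02 to 79.9 in the control, against 4.76 to 9.27 after *Hottip* gRNAs and 2.55 to 3.53 on the arrays labelled *Hoxa13* gRNA, and its part in the values below was not tested.

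On all 10 arrays, 12 of the 18 were well above background: those of *Dnmt1*, *Dnmt3b*, *Dnmt3l*, *Uhrf1* and *Tet1*, 1 of 2 of *Tet2* and 2 of 3 of *Tdg*. None was saturated. *Tet3* was the dim gene, with 2 of its 3 probes well above background on no array. Requiring signal well above background on at least 3 arrays left 15 probes for the test, all but the 3 of *Tet3*. Outlier marks removed 14 of the 180 values, so that 9 probes lack at least 1 array. Of those marks, 5 were on *Hottip* gRNA replicate 2, in spot rows 223 to 239 of that array, where 8.55% of spots were marked against 3.50% of the whole array.

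**Figure D1:**
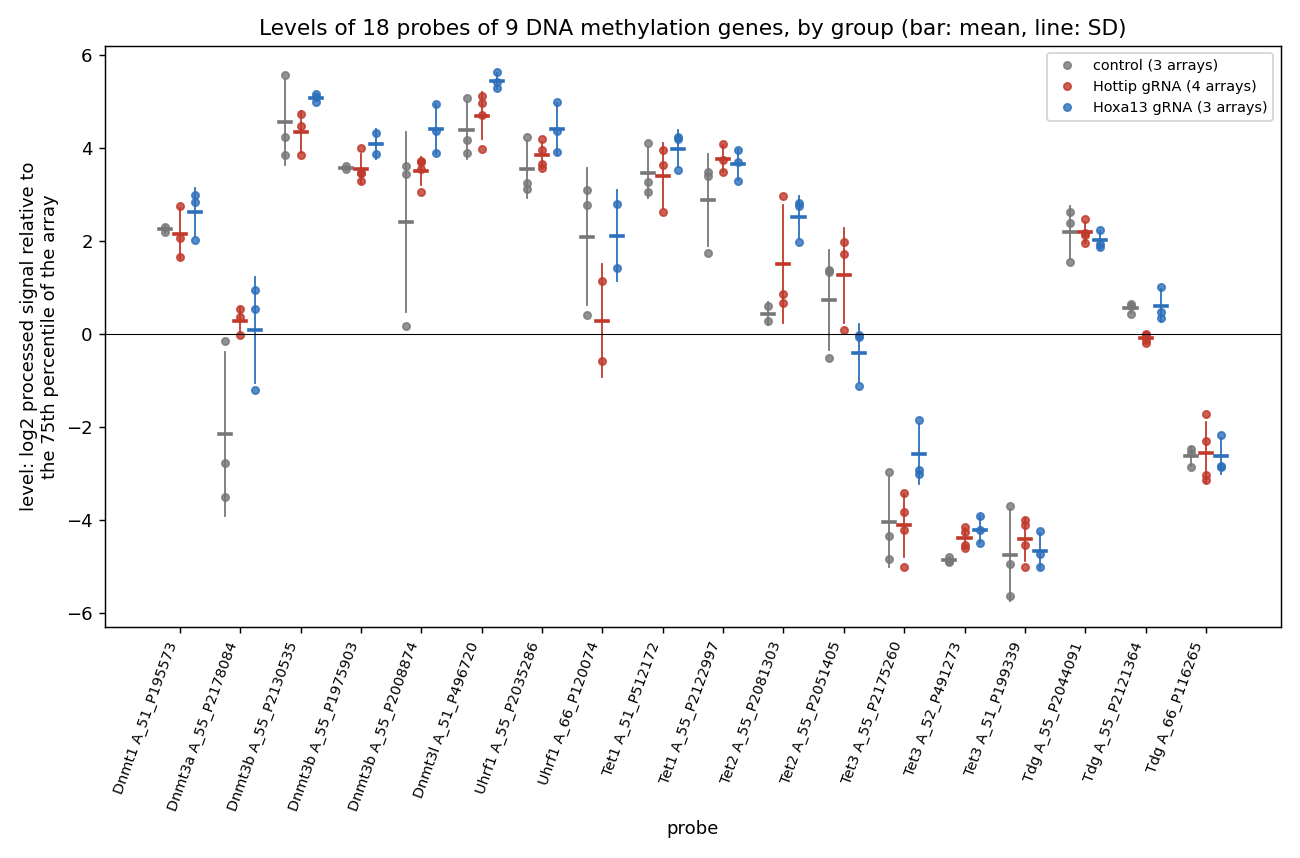
Level of each of the 18 probes on every array (y axis, log2 processed signal relative to the 75th percentile of the array), by group, with the group mean as a bar and the SD as a line. *Dnmt3b*, *Dnmt3l*, *Tet1* and the brighter *Uhrf1* probe lie high in all 3 groups apart from single control arrays, and the 3 *Tet3* probes lie low in all. The *Dnmt3a* control values run from −3.50 to −0.15, well above background on 1 of 3 arrays, so the size of its gap is uncertain.

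No probe of the 9 genes was called in any comparison at an adjusted p-value under 0.05 (limma, Benjamini-Hochberg over all probes tested). For *Hottip* gRNAs against the control 0 of 15 were called, where 0.718% of all tested probes were. For the arrays labelled *Hoxa13* gRNA against the control it was 0 of 15 with a background of 0.175%, and for *Hottip* against *Hoxa13* gRNAs 0 of 15 with 0.381%. At an unadjusted p under 0.05, 1, 4 and 2 of the 15 passed, beside 8.05%, 11% and 11.9% of all probes. The groups compared did not overlap for 4, 4 and 6 of the 15, beside 13.7%, 23.9% and 17.7% of all tested probes. The median difference of the 15 probes was 0.08 for *Hottip* gRNAs against the control (−0.03 over all probes), 0.52 for the arrays labelled *Hoxa13* gRNA (0.19 over all) and −0.57 between the targeted groups (−0.26 over all). The first 2 comparisons share the control arrays. The arrays labelled *Hoxa13* gRNA had a higher mean than the control for 13 of the 15 probes, beside 60.2% of all tested probes. Between the targeted groups, 5 of the 15 had a positive *Hottip* minus *Hoxa13* gRNA difference, beside 34.3% of all tested probes, and for *Hottip* gRNAs against the control 8 of the 15, beside 47.8%.

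**Figure D2:**
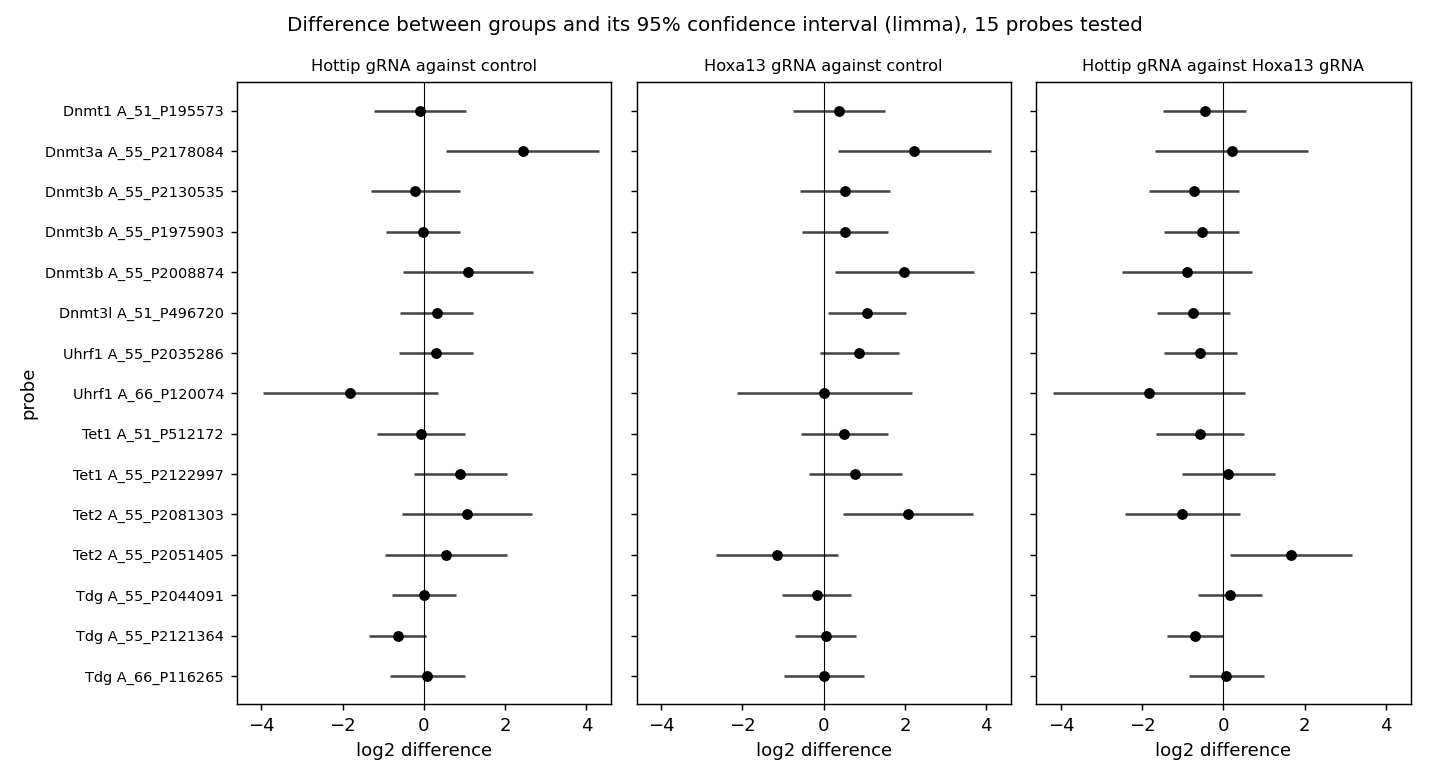
Log2 difference of each of the 15 tested probes (point) with its 95% confidence interval from limma (line) in the 3 comparisons. Intervals are wide, from −3.97 to 0.35 for the dimmer *Uhrf1* probe after *Hottip* gRNAs, and most cross 0. None of the differences passed the adjusted test, including those whose interval does not cross 0.

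*Dnmt1*, the maintenance methyltransferase, was at 1.66, 2.74 and 2.07 on *Hottip* gRNA replicates 1, 3 and 4, at 2.99, 2.84 and 2.03 on the arrays labelled *Hoxa13* gRNA and at 2.30 and 2.19 on control replicates 1 and 2. The remaining 2 spots were marked as outliers and left out of the fit. Groups overlapped in all 3 comparisons. The difference from the control was −0.09 (95% interval −1.22 to 1.05) after *Hottip* gRNAs and 0.37 (−0.76 to 1.51) for *Hoxa13* gRNAs, and the first interval holds a change of 2-fold in either direction. *Uhrf1*, which recruits Dnmt1, had a bright probe (A_55_P2035286) at 3.65, 3.96, 4.19 and 3.57 after *Hottip* gRNAs, 4.98, 4.36 and 3.90 on the arrays labelled *Hoxa13* gRNA and 3.12, 3.25 and 4.24 in the control. Its group means came in the order control 3.54 ± 0.61 (SD, n = 3), *Hottip* 3.84 ± 0.29 (SD, n = 4) and *Hoxa13* 4.41 ± 0.54 (SD, n = 3), with overlap between each pair of neighbours. Control replicate 3 was the highest of the control arrays and above all *Hottip* gRNA arrays. The dimmer *Uhrf1* probe (A_66_P120074) lost 3 spots to outlier marks and varied from −0.58 to 1.15 after *Hottip* gRNAs (2 arrays), from 1.43 to 2.80 for *Hoxa13* gRNAs (2 arrays) and from 0.41 to 3.09 in the control. With a spread of that size, the *Hottip* gRNA difference of −1.81 had an adjusted p of 0.747, and it was −0.94 without *Hottip* gRNA replicate 3. The 2 *Uhrf1* probes differed in sign for *Hottip* gRNAs, 0.31 against −1.81.

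*Dnmt3a*, a *de novo* methyltransferase, was dim and variable in the control. Its probe was at 0.53, 0.36 and −0.03 on *Hottip* gRNA replicates 2, 3 and 4, at 0.53, −1.21 and 0.94 on the arrays labelled *Hoxa13* gRNA and at −0.15, −3.50 and −2.78 in the control, where it was well above background on 1 of 3 arrays. Every *Hottip* gRNA value exceeded every control value, whereas *Hoxa13* gRNA replicate 2 lay below control replicate 1. Control replicate 1 stood apart from the other control arrays. The *Hottip* gRNA difference was 2.43 (standard error 0.84, 95% interval 0.55 to 4.31, adjusted p = 0.409), and the exact two-sided permutation test gave p = 0.1, the smallest that 3 arrays against 3 allow. Between control replicate 3 and *Hottip* gRNA replicate 2 on the first row of the slide it was 3.31, and between the 2 *Hottip* gRNA and 2 control arrays of the second row 1.99. For *Hoxa13* gRNAs the difference was 2.23 (0.35 to 4.11, adjusted p = 0.446). With 2 of 3 control values not well above background, the size of both differences is uncertain. Without control replicate 1 the *Hottip* gRNA difference was 3.43 with adjusted p = 0.0765, and without control replicate 2 it was 1.75.

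*Dnmt3b*, the *de novo* enzyme typical of pluripotent cells, was bright with all 3 probes, listed under the same transcript. Probe A_55_P2130535 was at 4.73, 4.47 and 3.83 on *Hottip* gRNA replicates 1, 3 and 4, at 4.99, 5.09 and 5.15 on the arrays labelled *Hoxa13* gRNA and at 3.84, 4.23 and 5.57 in the control. On this scale every *Hoxa13* gRNA array was above every *Hottip* gRNA array, and the control spanned both. These 2 groups did not overlap for 17.7% of all tested probes. On the authors' log2 values *Hoxa13* gRNA replicate 3, at 14.787, lay below *Hottip* gRNA replicates 3 and 4, at 14.807 and 14.812. Probe A_55_P1975903 was at 3.45, 3.47, 3.99 and 3.28 after *Hottip* gRNAs, 4.31 and 3.86 for *Hoxa13* gRNAs and 3.60 and 3.54 in the control, with 1 outlier spot in each of the last 2 groups. Its difference for *Hottip* gRNAs was −0.02 (−0.94 to 0.89). Probe A_55_P2008874 was at 3.55, 3.71, 3.69 and 3.06 after *Hottip* gRNAs, 4.95, 4.36 and 3.89 for *Hoxa13* gRNAs and 3.61, 3.44 and 0.18 in the control. The last value, control replicate 3, was far below all other arrays, which lay between 3.06 and 4.95, while the same array was the highest of the 9 measured on A_55_P2130535. Because of it the difference from the control was 1.09 for *Hottip* gRNAs and 1.99 for *Hoxa13* gRNAs; without that array the values were −0.03 and 0.87. Neither was called with or without it.

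*Dnmt3l*, the cofactor of the *de novo* enzymes, was at 4.96, 5.12, 4.71 and 3.98 after *Hottip* gRNAs, at 5.41, 5.62 and 5.29 on the arrays labelled *Hoxa13* gRNA and at 3.89, 4.16 and 5.06 in the control. On this scale all 3 *Hoxa13* gRNA arrays lay above all other arrays. Non-overlap was found for 23.9% of all tested probes in the comparison with the control and for 17.7% in that with *Hottip* gRNAs. The difference was 1.07 from the control (0.10 to 2.03, adjusted p = 0.446; exact permutation p = 0.1, the smallest possible) and that of *Hottip* from *Hoxa13* gRNAs −0.75 (−1.65 to 0.15, adjusted p = 0.461). *Hottip* gRNAs and the control overlapped, with a difference of 0.32 (−0.58 to 1.22). Bright probes as a whole were shifted in the same comparison: the median difference of the 4771 tested probes with a mean level above 3 was 0.63 for *Hoxa13* gRNAs against the control on this scale and −0.02 after quantile normalization, under which the *Dnmt3l* difference was 0.26. The authors' log2 values gave 0.22 for *Dnmt3l*. Other members moved with the scale as well. On the scale used here 13 of 15 probes had a positive *Hoxa13* gRNA difference (60.2% of all tested probes), against 9 after quantile normalization (49.8% of all) and 7 on the authors' log2 values (46.4%).

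*Tet1*, the main TET dioxygenase of ES cells, was bright with both probes. Probe A_51_P512172 was at 3.95, 3.64 and 2.62 on *Hottip* gRNA replicates 1, 3 and 4, at 4.23, 4.18 and 3.53 on the arrays labelled *Hoxa13* gRNA and at 3.26, 3.05 and 4.10 in the control. All pairs of groups overlapped, and the differences from the control were −0.07 (−1.14 to 1.01) and 0.51 (−0.56 to 1.59). Probe A_55_P2122997 was at 3.73, 4.07 and 3.49, at 3.70, 3.28 and 3.94, and at 3.40, 3.48 and 1.73 in the same order. Control replicate 3 again stood lowest, although the other *Tet1* probe put the same array above all *Hottip* gRNA and control arrays. On this probe *Hottip* gRNA and control arrays did not overlap, with a difference of 0.89 (−0.25 to 2.04, adjusted p = 0.797) that was 0.32 without control replicate 3.

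*Tet2* was measured by 2 probes that did not move together. Probe A_55_P2081303 was at 0.67, 0.86 and 2.96 on *Hottip* gRNA replicates 1, 2 and 3, at 2.81, 1.98 and 2.74 on the arrays labelled *Hoxa13* gRNA and at 0.61 and 0.27 on control replicates 1 and 2. The *Hoxa13* gRNA and *Hottip* gRNA arrays all lay above both control arrays. Differences from the control were 2.07 for *Hoxa13* gRNAs (0.48 to 3.66, adjusted p = 0.446; exact permutation p = 0.1, the smallest for 3 against 2) and 1.06 for *Hottip* gRNAs (−0.53 to 2.65, adjusted p = 0.874), the latter 0.33 without *Hottip* gRNA replicate 3. Blocking on the row that held the array gave 4.50 (adjusted p = 0.114) and 2.52 (adjusted p = 0.119). That fit sets 1 *Hottip* gRNA array against 2 control arrays of the same row and reaches *Hoxa13* gRNAs only through *Hottip* gRNA arrays. Probe A_55_P2051405 was at 0.09, 1.97 and 1.73 on *Hottip* gRNA replicates 1, 3 and 4, at −0.07, −1.12 and −0.03 for *Hoxa13* gRNAs and at 1.37, 1.33 and −0.51 in the control. Here the *Hoxa13* gRNA arrays were below all *Hottip* gRNA arrays, with a difference between those groups of 1.67 (0.17 to 3.17, adjusted p = 0.383), and its difference for *Hoxa13* gRNAs from the control was −1.14, the opposite sign to the other probe.

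The second *Tet2* probe varied with the position of the array. On the second row of the slide that held all 3 groups it was between 1.33 and 1.97 on all 4 arrays, control and *Hottip* gRNA alike, and on the first row between −0.51 and 0.09 on 3 arrays of 3 groups. *Hoxa13* gRNA arrays were on the first row of that slide (replicate 3) or on another slide (replicates 1 and 2), at −0.07 and −1.12 there, and none was on the second row. With the row as a block, its *Hottip* against *Hoxa13* gRNA difference was 0.09 in place of 1.67. *Dnmt3l* ran the other way, between 4.96 and 5.29 on the first row and between 3.89 and 4.71 on the second, and so did *Dnmt3b* A_55_P2130535, between 4.73 and 5.57 against 3.83 and 4.47. *Tdg* A_55_P2044091 was higher on the second row, 2.17 to 2.61 against 1.56 to 2.12. In all, 6 of the 15 tested probes did not overlap between the 2 rows, beside 18.9% of all 22844 probes above the filter.

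**Figure D3:**
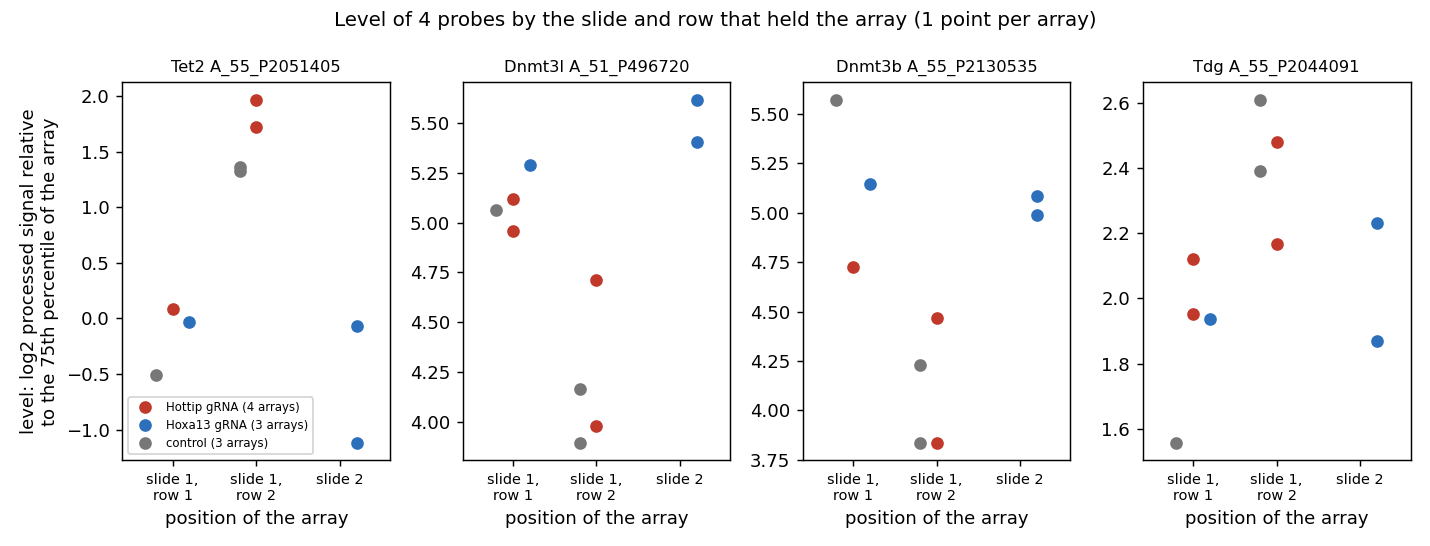
Level of 4 probes (y axis, log2 processed signal relative to the 75th percentile of the array; the range differs between panels) by the slide and row that held each array, 1 point per array and coloured by group. The 4 are among the 6 of 15 tested probes that did not overlap between the 2 rows of slide 1 on this scale. On the authors' log2 values the rows overlapped for the *Dnmt3b* and *Tdg* probes. In these panels *Tet2* A_55_P2051405 and *Tdg* A_55_P2044091 are higher on row 2, and *Dnmt3l* and *Dnmt3b* A_55_P2130535 on row 1.

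*Tet3*, the TET enzyme known from oocytes and differentiated cells, stayed near background. Probe A_55_P2175260 was at −3.42, −4.21, −3.83 and −5.01 after *Hottip* gRNAs and at −4.83, −4.33 and −2.97 in the control, not well above background on any of these 7 arrays. On the arrays labelled *Hoxa13* gRNA it was at −3.00, −2.92 and −1.84 and well above background on 2 of 3. The *Hoxa13* gRNA mean was compared with a bound for the dimmer group. For each array of that group, the higher of its lowest signal well above background and the probe's own level was taken, and these were averaged. On this scale the *Hoxa13* gRNA mean was 1.69-fold the bound for the control and 1.91-fold the bound for *Hottip* gRNAs. No test was made since the probe did not pass the filter. Control replicate 3 lay above *Hoxa13* gRNA replicate 1, so these groups overlapped. The spot on *Hoxa13* gRNA replicate 3 lay in a bright area, with a local median of 1.68. Subtracting the local median changed the *Hoxa13* gRNA difference from the control from 1.46 to 0.38. The *Hottip* minus *Hoxa13* gRNA difference went from −1.53 to −0.86, so neither fold is a lower bound under every setting. The other 2 *Tet3* probes ranged from −4.89 to −3.92 and from −5.63 to −3.69, none of them well above background, so that no fold is given.

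*Tdg*, the glycosylase downstream of the TET enzymes, was measured by 3 probes. Probe A_55_P2044091 was at 2.12, 1.95, 2.48 and 2.17 after *Hottip* gRNAs, at 2.23, 1.87 and 1.94 on the arrays labelled *Hoxa13* gRNA and at 2.61, 2.39 and 1.56 in the control. Its differences from the control were −0.01 (−0.79 to 0.78) and −0.17 (−1.02 to 0.67), so that a change of 2-fold in either direction lay outside the first interval and just inside the second on the lower side. Probe A_55_P2121364 was at −0.19, −0.14, 0.00 and −0.02 after *Hottip* gRNAs, at 0.34, 0.47 and 1.02 for *Hoxa13* gRNAs and at 0.65, 0.60 and 0.43 in the control. On this scale all 4 *Hottip* gRNA arrays lay below all 6 others. The differences were −0.65 from the control (−1.34 to 0.05, adjusted p = 0.678) and −0.70 from *Hoxa13* gRNAs (−1.39 to −0.0013, adjusted p = 0.418), each with an exact permutation p of 0.0286, the smallest for 4 against 3. Non-overlap of this kind was found for 13.7% and 17.7% of all tested probes in those comparisons. On this scale the difference from the control was −0.60 within the first row of the slide and −0.63 within the second. The *Hottip* gRNA arrays of the second row were not detrended, whereas its control arrays were. On the authors' log2 values, *Hottip* gRNA arrays of the first row were at 10.64 and 10.33, and the control at 10.72. Those of the second row were at 10.25 and 10.31, and its control arrays at 10.98 and 11.07. On the authors' log2 values *Hoxa13* gRNA replicate 1, at 9.82, lay below all *Hottip* gRNA arrays, and the difference from *Hoxa13* gRNAs was −0.11, that from the control −0.54. The brighter *Tdg* probe did not show it. The dimmest, A_66_P116265, was well above background on 6 of 10 arrays, between −3.13 and −1.73.

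Genes around the 9 were taken as 4 lists and read at the brightest probe of each gene. None of the genes in these lists was called in any comparison. Partners and cofactors of methylation had 13 of 15 genes tested, with a median difference from the control of 0.10 for *Hottip* gRNAs and 0.65 for *Hoxa13* gRNAs. *Usp7*, a deubiquitinase that binds Dnmt1 and Uhrf1, had the smallest p for *Hottip* gRNAs at this probe (4.23 ± 0.29, n = 4, against 3.19 ± 1.25, n = 3, SD; adjusted p = 0.724). Its dimmer probe, well above background on 8 of 10 arrays, had the opposite sign (−1.29, adjusted p = 0.496). *Trim28*, a corepressor that holds methylation at imprints, had it for *Hoxa13* gRNAs (5.15 ± 0.36, n = 3, against 4.03 ± 0.22, n = 2, SD; adjusted p = 0.446). *Dmap1*, a Dnmt1-associated protein, had a *Hottip* minus *Hoxa13* gRNA difference of −1.16 (adjusted p = 0.353). Readers and repair genes, 11 of 11 tested, had medians of −0.06 and 0.55. *Mbd3*, a NuRD subunit of the methyl-binding domain family, had the smallest p in all 3 comparisons, at 4.59 ± 0.52 (SD, n = 3) after *Hottip* gRNAs, 5.52 ± 0.21 (SD, n = 3) for *Hoxa13* gRNAs and 3.97 ± 0.13 (SD, n = 2) in control cells. The *Hoxa13* gRNA difference was 1.55 (adjusted p = 0.41), and 0.13 by its dimmer probe.

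The methyl donor and co-substrate enzymes were all 5 well above background on every array. Their medians of 0.43 and 0.97 stood beside those of bright probes in general, 0.15 and 0.63. *Ahcy*, which clears the product inhibitor of methyltransferases, was at 4.25 ± 0.24 (SD, n = 4), 4.80 ± 0.40 (SD, n = 3) and 3.83 ± 0.42 (SD, n = 3) for *Hottip* gRNAs, *Hoxa13* gRNAs and the control (adjusted p = 0.952 and 0.446). *Mat2a*, which makes S-adenosylmethionine, had a *Hottip* minus *Hoxa13* gRNA difference of −1.11 (adjusted p = 0.487). Of 12 germline genes whose promoters are known to be kept silent by methylation, 6 were well above background on all 10 arrays, among them *Tex19.1* at 3.48, 2.83 and 3.10 in the means of *Hottip* gRNAs, *Hoxa13* gRNAs and the control. In this list 10 genes were tested and none had an unadjusted p under 0.05 in any comparison, beside 8.05%, 11% and 11.9% of all probes. The medians were 0.17, 0.14 and −0.09. The smallest p values belonged to *Taf7l* for *Hottip* gRNAs (difference 0.56, adjusted p = 0.822), *Ddx4* for *Hoxa13* gRNAs (1.63, adjusted p = 0.517) and *Sycp1* between the targeted groups (0.75, adjusted p = 0.473).

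Other genes followed the brightest members from array to array. The closest to *Dnmt3b* A_55_P2130535 among 6660 probes of other genes were *Hccs* (Pearson r = 0.99), *Rpl27a* (r = 0.99) and *Rpl13a* (r = 0.99) over 9 arrays, and 217 probes had r above 0.9. *Dnmt3l* was followed most closely by *Rps6* (r = 0.99), *Rpl22* (r = 0.99) and *Gars* (r = 0.99) among 6380 probes over 10 arrays, 297 of which had r above 0.9. For *Tet1* A_51_P512172 they were *Hgh1* (r = 0.97), *Pml* (r = 0.97) and *Pias4* (r = 0.97) over 9 arrays, with 116 above 0.9. These arrays share their scale and slide positions, and the values describe likeness over arrays only.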

How the data were processed

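Total RNA of 10 cultures was labelled with Cy3 and hybridised to one-colour Agilent mouse arrays. The authors deposited the Feature Extraction 11.5.1.1 output, whose processed signal is a background-subtracted intensity, detrended on 8 of 10 arrays (not *Hottip* gRNA replicates 3 and 4), and a table of log2 values of the same arrays, which rank as the background-subtracted median signal, share one distribution and served as an alternative. The submitters' processing notes name limma. The array header names mm9.

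Here log2 of the processed intensity was taken relative to the 75th percentile of non-control spots, outlier spots were dropped and spots of a probe averaged. Genes were named through RefSeq accessions (27650 probes with a symbol); promoter windows are RefSeq, GRCm38.p6. Groups were fitted with limma 3.58.1 (R 4.3.3), variances moderated over all probes and p-values adjusted (Benjamini-Hochberg) over probes well above background on at least 3 arrays; calls are at 0.05. Single probes were also tested by exact two-sided permutation. The fit was tested on simulated data. Members and gene lists were chosen with earlier results of these data known; list genes named are those with the smallest p. Of the slides, 1 held 8 arrays of all groups and another *Hoxa13* gRNA replicates 1 and 2. Alternatives were scaling, background correction, filters, outlier handling, blocks (slide, row of the slide, replicate number), the samples fitted, moderation, probe averaging and each array left out. The 75th percentile without outlier spots, the row block on rescaled values, moderation over filtered probes and an 11 by 11 spot local median were added after seeing the data. Normexp used the median spot signal, since the files used here hold no mean. The number of arrays limits precision. The other *Hoxa13* guides are not reported here.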

Additional observations from a re-analysis of the deposited data

How the results depend on the processing

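Under 29 alternatives no probe of the 9 genes was called in any comparison. The lowest adjusted p was 0.0535 (*Tet2* A_55_P2081303 after *Hottip* gRNAs, slide row as a block with quantile normalization; its range over the alternatives reached 1). Of 1525 member values under an alternative, 155 had the other sign, in 35 of 54 results, none of them called; 19 results kept their sign throughout. The spread between 10 arrays and single outlying spots limit what can be seen; the cause of the moves was not tested.

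Counts over all probes moved more. For *Hottip* gRNAs against the control, 164 probes were called, and 109 on the authors' log2 values, 107 with outlier spots kept, 5 with the filter on all 10 arrays and 294 with the slide row as a block and quantile normalization. For *Hoxa13* gRNAs against the control, 40 were called, and 88 with centring on the median, 17 with outlier spots kept, 8 with the 75th percentile without outlier spots, 16 without a filter, 0 with the filter on all 10 arrays (limma; 1486 at an unadjusted p under 0.05), 65 with the slide as a block, 74 with the row as a block, 75 with the row and quantile normalization, 22 with only the 2 groups compared and 25 with an intensity trend. For *Hottip* against *Hoxa13* gRNAs, 87 were called, and 33 with the 75th percentile without outlier spots, 151 with the local median subtracted, 31 without a filter, 0 with the filter on all 10 arrays (limma; 1218 at an unadjusted p under 0.05), 156 with the row and quantile normalization and 143 with variances moderated over the filtered probes. With 1 array left out the counts ran from 56 to 240, from 3 to 130 and from 11 to 116, and 0 members were called each time; the lowest came without control replicate 2, *Hoxa13* gRNA replicate 3 or control replicate 2, and *Hoxa13* gRNA replicate 2, and the highest without control replicate 3.

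The replicate number as a block left 14, 2 and 8 calls. Deviations of the 9 pairs of arrays with the same number correlated between −0.23 and 0.14, and those of pairs with different numbers between −0.32 and 0.28. Arrays of the same number were thus not more alike by this measure. Slide position also enters these deviations, so they cannot decide whether the numbers pair the arrays. Why calls were lost under this block was not tested.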
